A study of Mus musculus with 12 samples.

Results

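Gain of Notch signalling was set against loss of Notch signalling in the normal, non-tumour tissue of mice that develop intestinal tumours. The comparison rests on 4 of the 12 arrays of the series: 2 arrays of Notch-activated normal tissue (genotype Vil-Cre;RosaN1+/RN1) and 2 of Notch-inactivated normal tissue (genotype Vil-Cre;Mib1f/f). A further 2 arrays of wild type normal tissue (genotype wt) were used to place wild type between these 2 ends. The matching tumour groups of the same 3 genotypes, with 2 arrays each, were used only to ask where the difference seen in normal tissue changed. All 6 groups are Apcmin mice, a strain with a truncating mutation of the tumour suppressor gene Apc, so the wild type mice carry that allele too. In this line the Villin promoter drives Cre recombinase in the gut epithelium, and Mib1f/f is a Cre-deletable allele of Mib1. Age, gut segment, strain background beyond Apcmin and the number of animals behind an array are not stated in the labels, so p-values measure the spread between arrays, which may be technical.

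Notch receptors are activated by ligands on a neighbouring cell, and Mib1 is the ubiquitin ligase that the ligand-bearing cell needs for its ligand to act. The cleaved receptor enters the nucleus, binds the DNA-binding protein RBPJ and switches on repressors that silence the secretory regulator Atoh1. In the intestinal crypt, progenitors with active Notch are known to become absorptive cells or remain progenitors, and progenitors without it become goblet, Paneth, enteroendocrine or tuft cells. Bulk tissue was measured, so fewer cells of a type and less RNA per cell cannot be told apart.

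Each value is a log2 signal from an Illumina bead array, and a difference of 1 is a 2-fold difference. Over the 6 normal arrays the background limit, set from probes to foreign sequences, lay between 5.73 and 5.92, and between 32.5% and 38.6% of the probes exceeded it. Of 21535 features tested with limma across the 12 arrays, 1021 (4.74%) were higher and 1052 (4.89%) lower in Notch-activated than in Notch-inactivated normal tissue at an adjusted p under 0.05, which is what "called" means here, 2073 (9.63%) in all. The arrays of these groups did not overlap for 50.1% of the features. The changes downward were larger: 215 features (0.998%) were called higher by at least 2-fold and 435 (2.02%) lower. The second Notch-activated array carried much of the count, since without it 379 features were called higher and 576 lower. Only 5041 features have a gene name, read from the gene number in the probe identifier, and of these 226 (4.48%) were called higher and 263 (5.22%) lower. Probes whose number follows 2 zeros are named less firmly, because ribosomal protein genes, which are abundant in every tissue, had a median signal of 6.30 over 21 such probes but 13.2 over 57 probes with 1 zero. Genes described here through such a probe include H2-D1, Defa25, Defa17, Defa3, Defa20, Slc12a8, Bcas1, Clca1, Bhlha15, Nkx2-2, Scg2, Pcsk1n, Dlk1, Cbfa2t3, Hspb1, Kcnq1, Cldn10, Krt13, Qsox1, Greb1, Ckb, Slc9a2, Hsd11b2, Hoxb13, Slc5a1, Prom1, H2-K1, Ugt1a7c and Mib1. The same holds for Dclk1, Klf4, Rbpj, Apc, Tnfrsf22, Ifi27l2a, Ptn, Nkd1, Aqp4, Slc5a8, Clca4a and Sox4.

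The reporter sequences of the activating allele followed the labels. A probe for eGFP, the fluorescent marker, read 9.76 and 10.20 in Notch-activated normal tissue, against 5.13 and 5.14 in Notch-inactivated and 5.22 and 5.21 in wild type tissue. An IRES probe, for the linker that couples a marker to a transgene, read 7.995 and 8.54 in Notch-activated, 5.47 and 5.41 in Notch-inactivated and 5.36 and 5.38 in wild type tissue. Both were above background on the Notch-activated arrays only, with eGFP at least 17.3-fold and IRES at least 5.28-fold higher than in Notch-inactivated tissue. A separate probe named GFP, without the e, and one named Cre were at background on all 6 normal arrays. Mib1 read 6.65 and 6.38 in Notch-activated, 6.17 and 6.07 in Notch-inactivated and 6.37 and 6.44 in wild type tissue. The Mib1 difference of 0.39 (SE 0.10, adjusted p = 0.0432) was called, but the Notch-inactivated arrays were not called apart from wild type (adjusted p = 0.18). The Mib1 call was lost in 11 of the 12 fits that each leave out 1 array, for example at 0.26 and an adjusted p of 0.201 without the first Notch-activated array. The position of this probe relative to the floxed exons is unknown here, so Mib1 does not check the labels. Apc was not called, at 6.91 and 6.68 in Notch-activated, 6.87 and 6.91 in Notch-inactivated and 6.71 and 6.89 in wild type tissue. No probe here was named Notch1.

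Many of the named genes furthest lowered in Notch-activated relative to Notch-inactivated normal tissue are products of Paneth cells, the crypt-base cells that secrete antimicrobial peptides. Of 11 Paneth cell genes tested, 10 were called lower and none higher, with a median difference of -4.44 against 0.03 over all features. The alpha-defensins, small bactericidal peptides kept in Paneth granules, made up 7 of the 10. The upstream sequences of 2 of them are shown as an example of how alike defensin gene copies can be. The 250 bases before the annotated start sites of Defa20 and Defa21 follow, from RefSeq on GRCm38.p6, at chr8:21509008-21509257 (plus strand) and chr8:21025295-21025544 (plus strand).
Defa20: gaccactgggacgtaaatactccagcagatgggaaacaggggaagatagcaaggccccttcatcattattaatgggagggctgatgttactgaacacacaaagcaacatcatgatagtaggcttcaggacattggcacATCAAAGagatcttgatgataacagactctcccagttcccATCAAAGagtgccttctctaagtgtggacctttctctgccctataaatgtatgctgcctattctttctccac
Defa21: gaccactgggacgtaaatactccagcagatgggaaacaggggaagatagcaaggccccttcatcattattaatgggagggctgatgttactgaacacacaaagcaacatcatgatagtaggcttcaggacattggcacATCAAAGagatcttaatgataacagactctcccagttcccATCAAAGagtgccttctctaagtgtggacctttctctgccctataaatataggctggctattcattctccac
The capitals mark ATCAAAG, the letters bound by TCF/LEF factors of the Wnt pathway, searched on both strands, which begin 112 and 72 bases before the start site in each gene. The stretches match at 245 of 250 positions. ATCAAAG stood in 3.23% of all 27025 promoters of the same length and in 2.05% of those of 3996 named genes tested. It stood in none of 45 genes called at least 2-fold higher and in 3 of 77 called at least 2-fold lower (3.90%). Of the 6 Paneth genes with a sequence, the 2 that held it were Defa20 and Defa21. These are near copies, so the 2 are not independent and their share does not measure how common the letters are in Paneth genes. Because defensin copies are so alike, a probe named for one may also read another, and the defensin values are not independent of each other.

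Defa25 read 5.72 and 5.42 in Notch-activated tissue, against 13.10 and 12.45 in Notch-inactivated and 8.19 and 5.75 in wild type tissue. Lyz1, the Paneth lysozyme that cleaves bacterial cell walls, read 5.69 and 5.31 in Notch-activated, 11.31 and 12.27 in Notch-inactivated and 6.95 and 7.03 in wild type tissue. Both genes were at background on both Notch-activated arrays and among the brighter genes on both Notch-inactivated arrays, with no overlap. Defa25 was at least 128-fold lower and Lyz1 at least 64.7-fold lower (fitted log2 differences -7.21, SE 0.65, adjusted p = 0.000122, and -6.29, SE 0.51, adjusted p = 6.69e-05). A second Lyz1 probe gave a difference of -5.74. Defa5 read 5.52 and 5.56 in Notch-activated, 11.76 and 10.33 in Notch-inactivated and 5.39 and 5.50 in wild type tissue, at least 38.8-fold lower (adjusted p = 6.04e-05). Defa21 read 5.51 and 5.61 in Notch-activated, 11.05 and 8.96 in Notch-inactivated and 5.54 and 5.58 in wild type tissue, at least 18.8-fold lower (adjusted p = 0.00126). For Defa5 and Defa21 wild type lay at background together with Notch-activated tissue, so the signal stood out on the Notch-inactivated arrays alone. Defa17 followed with a difference of -5.16 (SE 0.72, adjusted p = 0.00176), and Defa3 was at least 13.3-fold lower (adjusted p = 0.00248).

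Other members of the Paneth list behaved less uniformly. Defa20, shown for its upstream sequence and so chosen after its values were seen, read 5.53 and 5.57 in Notch-activated, 8.91 and 7.01 in Notch-inactivated and 5.45 and 5.32 in wild type tissue, at least 4.55-fold lower (adjusted p = 0.0247). Its call was lost without the first or the second Notch-activated array (adjusted p = 0.104 and 0.127) and without the first Notch-inactivated array (-1.46, adjusted p = 0.107). Mptx1, mucosal pentraxin, a pattern-recognition protein, read 7.16 and 5.42 in Notch-activated, 12.98 and 10.20 in Notch-inactivated and 12.79 and 12.20 in wild type tissue. Mptx1 therefore was a member in which wild type stood with the Notch-inactivated end, at a Notch-activated minus Notch-inactivated difference of -5.30 (SE 1.08, adjusted p = 0.0135). That call was lost without the second Notch-activated array (-4.42, adjusted p = 0.122) and without the first Notch-inactivated array (-3.91, adjusted p = 0.0811). Ang4, an antimicrobial ribonuclease, was the member that missed the threshold, at 5.04 and 5.39 in Notch-activated, 8.44 and 5.41 in Notch-inactivated and 7.65 and 6.02 in wild type tissue (adjusted p = 0.226). The Ang4 signal of the second Notch-inactivated array was at background, and without that array the Ang4 difference was -3.23 (adjusted p = 0.00589).

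**Figure D1:**
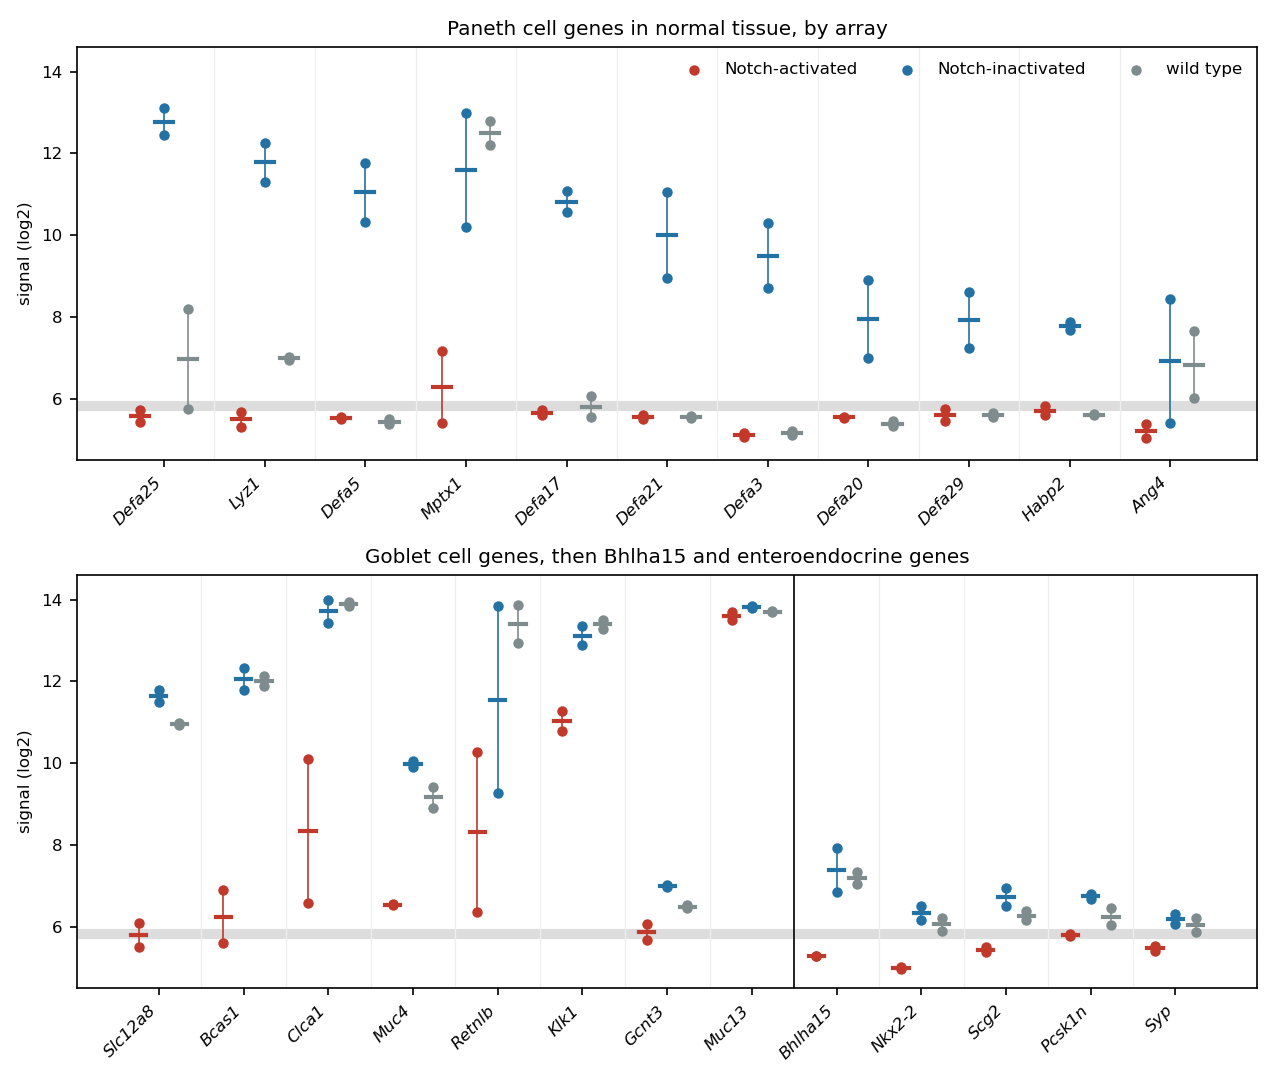
Log2 signal of each gene of the Paneth list (top) and of the goblet list, then Bhlha15 and the called enteroendocrine genes (bottom), for each normal array, with the Notch-activated group left, Notch-inactivated next and wild type right. Points are arrays, horizontal bars are means of 2 arrays, thin lines join the arrays of a group and the grey band spans the background limits of the normal arrays. Defa5, Defa21, Defa3 and Defa20 exceed background in Notch-inactivated tissue only, and the goblet genes Slc12a8, Bcas1 and Muc4 are dim in Notch-activated tissue only.

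Goblet cells, which make the mucus layer, gave a different picture: several of their genes were low in Notch-activated tissue, with wild type near the Notch-inactivated end. Of 8 goblet cell genes tested, 5 were called lower and none higher, with a median difference of -3.34. Slc12a8, a membrane transporter of the cation-chloride cotransporter family, read 6.11 and 5.51 in Notch-activated, 11.50 and 11.78 in Notch-inactivated and 11.00 and 10.94 in wild type tissue. Bcas1 read 6.90 and 5.60 in Notch-activated, 12.32 and 11.79 in Notch-inactivated and 12.13 and 11.90 in wild type tissue. The membrane mucin Muc4 read 6.54 and 6.55 in Notch-activated, 9.92 and 10.04 in Notch-inactivated and 9.42 and 8.91 in wild type tissue. In each of the 3 genes the Notch-activated arrays lay far under all 4 other normal arrays. The differences were -5.83 for Slc12a8 (SE 0.24, adjusted p = 8.96e-07), -5.80 for Bcas1 (SE 0.34, adjusted p = 8.92e-06) and -3.43 for Muc4 (SE 0.22, adjusted p = 1.57e-05). Wild type was called apart from the Notch-activated end and not from the Notch-inactivated end for these 3 genes.

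The secreted goblet products varied strongly between arrays. Clca1, a secreted mucus-processing protease, read 10.11 and 6.58 in Notch-activated, 13.997 and 13.43 in Notch-inactivated and 13.93 and 13.86 in wild type tissue. Retnlb, an antibacterial goblet lectin-like peptide, read 10.27 and 6.36 in Notch-activated, 13.83 and 9.27 in Notch-inactivated and 13.86 and 12.94 in wild type tissue. The Clca1 arrays did not overlap, but its difference of -5.36 missed the threshold (adjusted p = 0.0541), and the Retnlb arrays did overlap (adjusted p = 0.256). Without the first Notch-activated array, the higher of the pair, Clca1 passed at -7.13 (adjusted p = 0.0449). Klk1, a kallikrein protease, and Gcnt3, which builds mucin-type sugar chains, were called lower at -2.08 (adjusted p = 0.00179) and -1.12 (adjusted p = 0.000463). The membrane mucin Muc13, which absorptive cells also make, was near the top of the scale in every group and differed by -0.22 (adjusted p = 0.246).

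Among secretory transcription factors, 2 of 4 tested were called lower and none higher. Bhlha15, also known as Mist1, which builds the secretory apparatus, read 5.29 and 5.30 in Notch-activated, 7.93 and 6.86 in Notch-inactivated and 7.33 and 7.06 in wild type tissue. Nkx2-2, an enteroendocrine fate factor, read 5.02 and 4.96 in Notch-activated, 6.16 and 6.51 in Notch-inactivated and 5.91 and 6.22 in wild type tissue. Both were at background on the Notch-activated arrays, and Bhlha15 was at least 3.09-fold (adjusted p = 0.00159) and Nkx2-2 at least 1.48-fold lower (adjusted p = 0.000394). A second Bhlha15 probe, of the firmer kind, was not above background and differed by -0.16. Klf4 and Xbp1, which are active in goblet and Paneth cells but also elsewhere, differed by -0.15 (adjusted p = 0.73) and -0.06 (adjusted p = 0.855). Of 5 enteroendocrine genes tested, 4 were called lower: Nkx2-2, the granule protein Scg2 (at least 1.95-fold, adjusted p = 0.00083), the prohormone convertase inhibitor Pcsk1n (-0.95, adjusted p = 0.00155) and the vesicle protein Syp (at least 1.34-fold, adjusted p = 0.0072). The Syp call was lost without the second Notch-activated array (-0.66, adjusted p = 0.0669). Tuft cells, the chemosensory cells, had no limma call among 4 genes tested, of which 3 had an unadjusted p under 0.05. Their kinase Dclk1 read 5.92 and 5.75 in Notch-activated, 7.01 and 6.27 in Notch-inactivated and 7.19 and 6.46 in wild type tissue, with no overlap (-0.81, adjusted p = 0.0774).

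**Figure D2:**
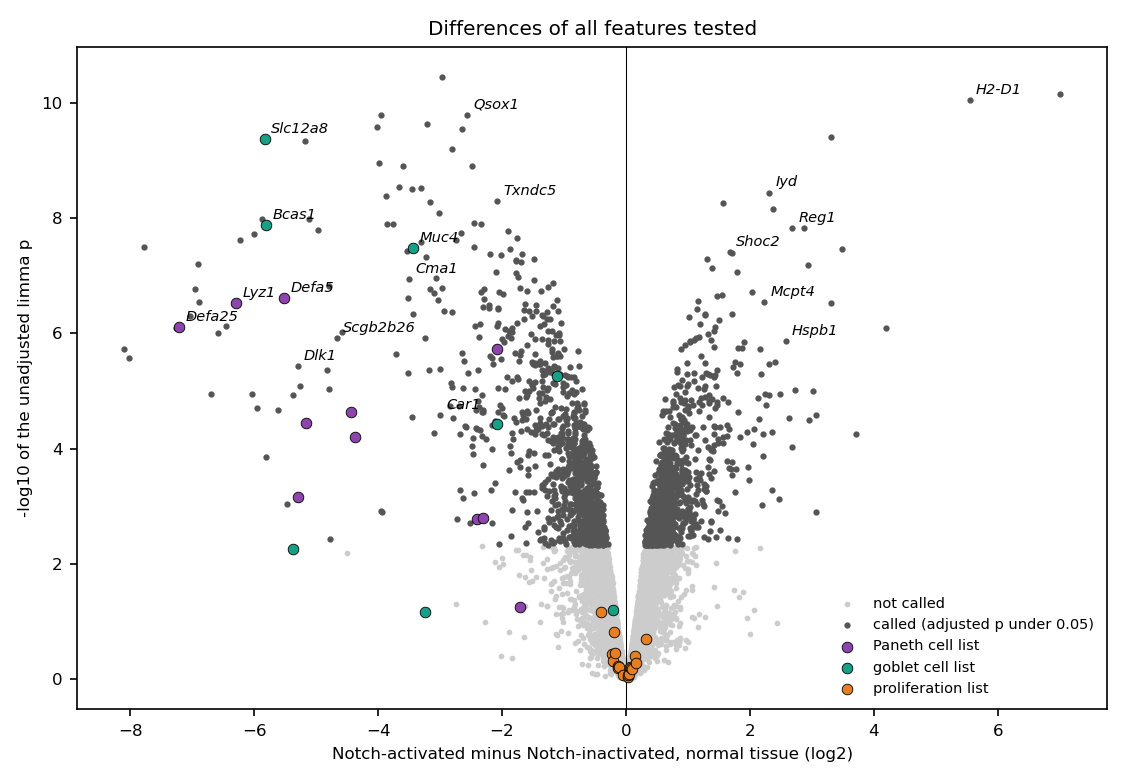
Each of the 21535 features by its Notch-activated minus Notch-inactivated difference in normal tissue (horizontal, log2) and by the negative log10 of its unadjusted limma p (vertical). Dark grey points were called, coloured points are members of the Paneth, goblet and proliferation lists, and the widest differences lie on the lower side.

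Several genes outside the secretory lists were also much lower in Notch-activated tissue. Dlk1, a Delta-like protein that lacks the canonical Notch-binding domain, read 6.02 and 5.81 in Notch-activated, 10.02 and 12.41 in Notch-inactivated and 6.39 and 6.72 in wild type tissue. Scgb2b26, a secretoglobin, read 6.83 and 6.78 in Notch-activated, 11.78 and 11.16 in Notch-inactivated and 7.78 and 6.18 in wild type tissue. Like the defensins, both stood out on the Notch-inactivated arrays alone. Dlk1 differed by -5.30 (SE 0.57, adjusted p = 0.000361) and Scgb2b26 by -4.66 (SE 0.44, adjusted p = 0.000163). A second Scgb2b26 probe was not above background and differed by 0.02. Cyp2c66, a cytochrome P450, showed the same order at 5.95 and 6.11 in Notch-activated, 9.08 and 8.85 in Notch-inactivated and 6.46 and 7.34 in wild type tissue (-2.94, adjusted p = 8.06e-05). A second Cyp2c66 probe, also above background, differed by -1.14.

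Other strongly lower genes had wild type nearer the Notch-inactivated end. Cbfa2t3, a transcriptional corepressor of the ETO family, read 6.73 and 6.25 in Notch-activated, 9.14 and 9.51 in Notch-inactivated and 7.79 and 8.79 in wild type tissue (-2.84, SE 0.37, adjusted p = 0.00109). The muscle-type glycolytic enzyme Eno3 read 8.86 and 8.97 in Notch-activated, 11.15 and 11.11 in Notch-inactivated and 11.49 and 11.38 in wild type tissue (-2.22, SE 0.18, adjusted p = 6.96e-05). Neither gene had overlapping arrays between the ends. Eno3 was the one call among 13 glycolysis genes tested, whose median difference was 0.02.

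The largest gain of a named gene was in H2-D1, a classical MHC class I gene that varies between mouse strains, named here through a probe of the less firm kind. H2-D1 read 10.97 and 10.94 in Notch-activated tissue, against 5.26 and 5.55 in Notch-inactivated and 5.26 and 5.201 in wild type tissue. It was at background in both other groups and at least 34.0-fold higher (fitted difference 5.55, SE 0.19, adjusted p = 6.36e-07). The same step was present in tumours, at 10.83 and 10.44 in Notch-activated, 5.57 and 5.49 in Notch-inactivated and 5.25 and 5.85 in wild type tumours. Among 11 MHC class I genes tested, H2-D1 and H2-Q6 (1.35, adjusted p = 0.00482) were called higher, and H2-K1 (-1.03, adjusted p = 0.0024) and H2-Q2 (-0.61, adjusted p = 0.0462) lower. H2-Q2 turned to 0.49 (adjusted p = 0.0238) when its probes were averaged, and its call was lost in 9 of the 12 fits without 1 array, with its smallest difference, -0.39 (adjusted p = 0.213), without the second Notch-inactivated array. The MHC class I genes thus went in both directions, and whether strain background differed between the groups was not tested.

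The next genes by size of gain have varied roles. Reg1, a secreted lectin-like protein linked to epithelial regeneration, read 8.03 and 8.38 in Notch-activated, 5.51 and 5.53 in Notch-inactivated and 5.54 and 5.70 in wild type tissue. The small heat shock protein gene Hspb1 read 9.50 and 8.91 in Notch-activated, 6.77 and 6.48 in Notch-inactivated and 7.09 and 6.50 in wild type tissue. In both genes wild type lay with the Notch-inactivated arrays. Reg1 was at least 5.05-fold higher (adjusted p = 9.35e-06), and Hspb1 differed by 2.58 (SE 0.25, adjusted p = 0.000175). Trf, the iron carrier transferrin, read 10.73 and 10.60 in Notch-activated, 7.88 and 8.76 in Notch-inactivated and 8.18 and 9.25 in wild type tissue (2.35, SE 0.34, adjusted p = 0.00218). Srd5a1, which reduces steroid hormones, read 9.65 and 9.72 in Notch-activated, 7.02 and 8.22 in Notch-inactivated and 7.05 and 6.87 in wild type tissue (2.07, SE 0.30, adjusted p = 0.00201). The tight junction gene Cldn10 was higher by 2.06 (adjusted p = 0.00302), Hyi by 2.41 (adjusted p = 0.000329) and Fndc5 by 2.21 (adjusted p = 0.00228). Shoc2, a scaffold of the Ras pathway, was called at 1.68 (adjusted p = 1.71e-05) through a probe of the less firmly named kind, while its other probe differed by 0.12 (adjusted p = 0.583).

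In a pair of ion transport genes the movement came from the Notch-inactivated side. Kcnq1, the potassium channel of chloride-secreting epithelium, read 10.39 and 10.49 in Notch-activated, 8.41 and 7.85 in Notch-inactivated and 10.24 and 10.04 in wild type tissue (2.31, SE 0.25, adjusted p = 0.00034). The sodium bicarbonate cotransporter Slc4a4 read 8.06 and 8.41 in Notch-activated, 6.75 and 6.15 in Notch-inactivated and 8.22 and 8.26 in wild type tissue (1.79, SE 0.20, adjusted p = 0.000426). Wild type lay at the Notch-activated end for both, and a second Slc4a4 probe, not above background, differed by 0.01. Iyd, which recovers iodide from iodotyrosines, was graded across the 3 groups, at 9.34 and 9.29 in Notch-activated, 7.11 and 6.89 in Notch-inactivated and 7.87 and 8.13 in wild type tissue (2.31, SE 0.12, adjusted p = 4.09e-06).

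RBPJ, the protein through which Notch acts on DNA, prefers the letters GTGGGAA, and stretches around these letters are shown for the genes described here whose 250 upstream bases hold them. The windows of 60 bases are from RefSeq on GRCm38.p6, and capitals mark the letters on either strand.
Hspb1: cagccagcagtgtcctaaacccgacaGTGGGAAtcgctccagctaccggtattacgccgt
Iyd: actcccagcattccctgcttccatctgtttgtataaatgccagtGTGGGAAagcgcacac
Krt13: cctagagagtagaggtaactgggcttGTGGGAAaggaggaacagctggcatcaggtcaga
Slc12a8: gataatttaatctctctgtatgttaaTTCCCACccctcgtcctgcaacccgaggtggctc
These are chr5:135887721-135887780 (plus strand) for Hspb1, chr10:3540214-3540273 (plus strand) for Iyd, chr11:100121643-100121702 (minus strand) for Krt13 and chr16:33517153-33517212 (plus strand) for Slc12a8, where the letters lie on the opposite strand. The letters start 172, 16, 110 and 149 bases before the start sites of Hspb1, Iyd, Krt13 and Slc12a8 in that order. GTGGGAA occurred in 5.41% of all promoters, in 4.93% of those of named genes tested, in 5 of 45 genes called at least 2-fold higher (11.1%) and in 4 of 77 called at least 2-fold lower (5.19%). The bHLH letters CAGCTG stood in 12.8% of all promoters, 11.3% of tested genes, 5 of 45 higher genes (11.1%) and 5 of 77 lower genes (6.49%). These counts describe letters in a window and do not say where any factor binds.

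Genes of absorptive cells did not rise together in Notch-activated tissue. Of 11 small-intestinal enterocyte genes tested, 1 was called higher and 3 lower, with a median difference of 0.07. Among all features 4.74% were called higher and 4.89% lower. The sodium-glucose cotransporter Slc5a1 read 9.83 and 9.89 in Notch-activated, 8.98 and 8.88 in Notch-inactivated and 9.96 and 10.22 in wild type tissue (0.93, SE 0.19, adjusted p = 0.0131). Its call was lost without the first (0.96, adjusted p = 0.0584) or second Notch-activated array (0.90, adjusted p = 0.0915) and without the second Notch-inactivated array (0.88, adjusted p = 0.064). The lower ones were the apolipoprotein gene Apoc2 (-0.87, adjusted p = 0.00521), the peptide transporter Slc15a1 (-0.39, adjusted p = 0.0263) and the fructose transporter Slc2a5 (-0.34, adjusted p = 0.034), with no normal array of the 3 genes above 7.199. The Slc15a1 and Slc2a5 calls were lost without the first Notch-activated array (adjusted p = 0.0929 and 0.125), the second (adjusted p = 0.11 and 0.1) and the first Notch-inactivated array (adjusted p = 0.13 and 0.142), and Slc2a5 also without the second Notch-inactivated array (adjusted p = 0.0526) and without any 1 of the 4 arrays of Notch-activated and Notch-inactivated tumours (adjusted p = 0.0556).

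Genes of colonic surface cells and transport were called lower in 5 of 15 and higher in none, with a median difference of -0.60. Among all features 4.89% were called lower and 4.74% higher. The list did not move in 1 direction, since some uncalled members were higher in Notch-activated tissue. Among these were Selenbp1 (0.98, adjusted p = 0.0527) and Slc5a8 (0.92, adjusted p = 0.0822). Car1, the carbonic anhydrase of colonic epithelium, read 10.55 and 11.20 in Notch-activated, 13.87 and 13.87 in Notch-inactivated and 12.73 and 13.47 in wild type tissue (-2.997, SE 0.40, adjusted p = 0.00138). Ckb, brain-type creatine kinase, read 8.09 and 7.75 in Notch-activated, 11.00 and 9.83 in Notch-inactivated and 7.14 and 7.33 in wild type tissue (-2.49, SE 0.39, adjusted p = 0.00315). The sodium-hydrogen exchanger Slc9a2 read 8.47 and 8.87 in Notch-activated, 9.94 and 9.67 in Notch-inactivated and 10.10 and 10.53 in wild type tissue (-1.13, adjusted p = 0.00674). Wild type thus stood with the Notch-activated end for Ckb and with the Notch-inactivated end for Slc9a2. Mettl7b (-1.58, adjusted p = 0.0277) and the cortisol-inactivating enzyme Hsd11b2 (-0.92, adjusted p = 0.0399) were the other calls. The calls of Slc9a2 (-0.93, adjusted p = 0.0559), Mettl7b (-1.28, adjusted p = 0.156) and Hsd11b2 (-0.83, adjusted p = 0.167) were lost without the first Notch-activated array. Those of Mettl7b (-1.88, adjusted p = 0.0669) and Hsd11b2 (-1.01, adjusted p = 0.128) were also lost without the second. Mettl7b lost its call without the first Notch-inactivated array as well (-1.25, adjusted p = 0.147), and Hsd11b2 without the second (-0.63, adjusted p = 0.194), without either wild type normal array (adjusted p = 0.0556) and without either Notch-activated tumour array (adjusted p = 0.0533).

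Markers of the gut segment bear on these lists. Hoxb13, a homeobox gene of the distal colon, was bright in every group, at 11.88 and 11.84 in Notch-activated, 11.23 and 11.62 in Notch-inactivated and 11.98 and 12.08 in wild type tissue (0.44, adjusted p = 0.0877). Of the 11 Paneth genes, those at background on both wild type arrays included Defa5, Defa21, Defa3, Defa20, Defa29 and Habp2. The summed signal of the 11 Paneth genes, on a log2 scale, was 9.27 and 8.93 in Notch-activated, 14.87 and 13.96 in Notch-inactivated and 12.97 and 12.37 in wild type tissue. In wild type tissue nearly all of this sum was Mptx1, at 12.79 and 12.20. The part of an unequal share of gut segments in the differences was not tested.

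Genes of dividing cells gave no call. None of 18 proliferation genes tested was called by limma and none had an unadjusted p under 0.05, with a median difference of -0.01. Of these 18 genes, 1 was at background on all 6 normal arrays. Over all features 9.63% were called, so the lack of a call in a list this small is near that share. The widest of these differences was that of the flap endonuclease Fen1 at 9.09 and 8.90 in Notch-activated, 9.36 and 9.45 in Notch-inactivated and 9.47 and 8.94 in wild type tissue (-0.41, SE 0.20, adjusted p = 0.257). None of 9 Wnt target genes was called either, again near the share of all features. Of these 9, 1 had an unadjusted p under 0.05 and 2 were at background on all 6 normal arrays, and the median was -0.12. Of 7 intestinal stem cell genes, 1 was called lower and none higher. Prom1, which encodes the membrane protein CD133, read 11.72 and 11.65 in Notch-activated, 12.86 and 12.57 in Notch-inactivated and 11.29 and 10.92 in wild type tissue (-1.03, SE 0.15, adjusted p = 0.00194). Its wild type arrays lay under both ends.

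Of 24 Notch ligands, receptors and processing genes tested, Mib1 was called higher and Dlk1 lower, a share near that of all features, and 7 had an unadjusted p under 0.05. The receptor gene Notch4 read 10.39 and 10.11 in Notch-activated, 9.84 and 10.14 in Notch-inactivated and 9.11 and 9.16 in wild type tissue (0.25, adjusted p = 0.413), with wild type under both ends. Rbpj exceeded background on the Notch-activated arrays only, by little, and was not called (0.15, adjusted p = 0.415). Of 15 listed Notch target genes, the 2 tested were the T cell genes Gata3 and Ptcra, and neither was called (1 had an unadjusted p under 0.05). The classical Hes and Hey targets were not analysed here.

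**Figure D3:**
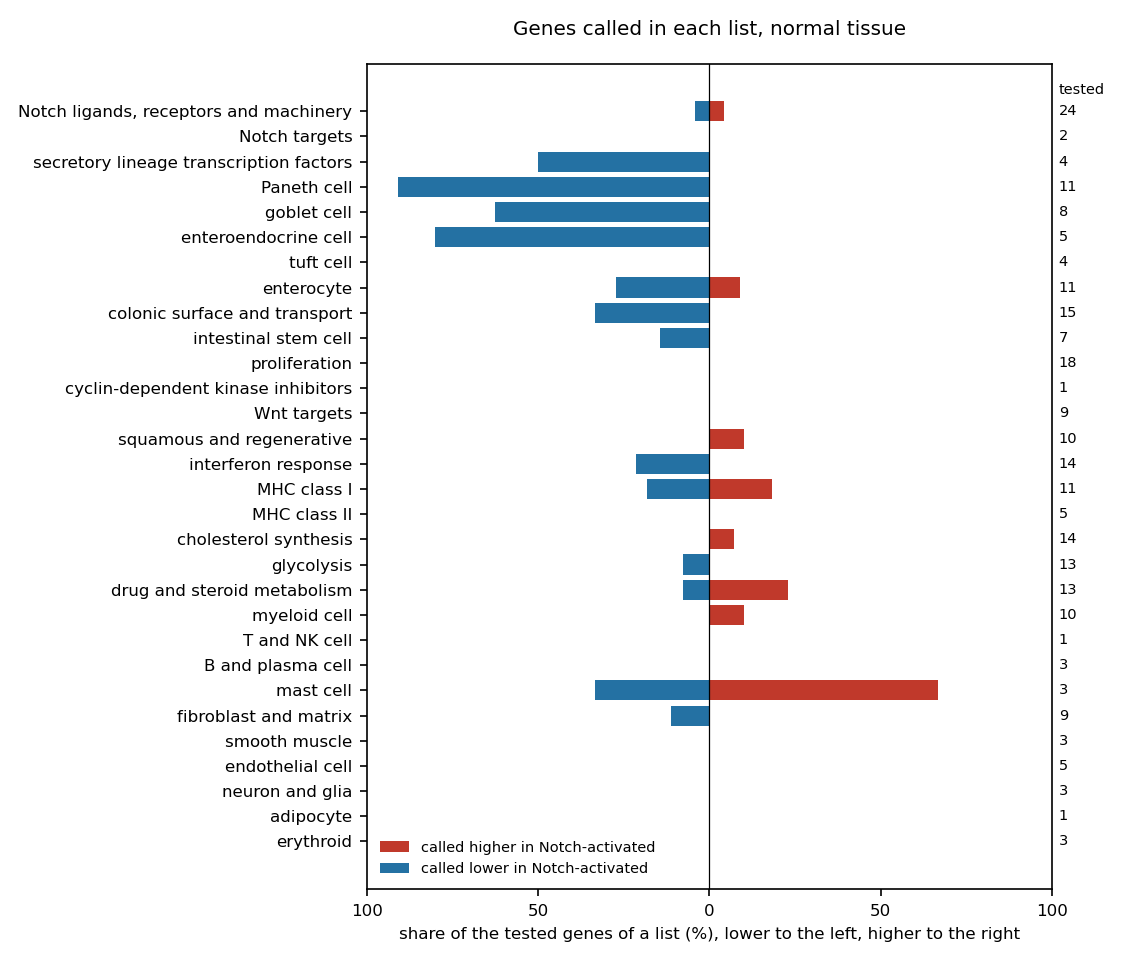
Share of the tested genes of each list that was called in Notch-activated relative to Notch-inactivated normal tissue, with genes called lower drawn to the left and genes called higher to the right of 0 (percent), and the number of genes tested at the right edge. Among the Paneth genes 10 of 11 are lower, among the goblet genes 5 of 8 and among the enteroendocrine genes 4 of 5, and the proliferation and Wnt target lists have no call.

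The metabolic lists differed in their share of calls, beside 4.74% of all features called higher and 4.89% lower. The glucuronidating enzymes Ugt1a6a (1.44, adjusted p = 0.00115), Ugt1a7c (1.32, adjusted p = 0.00593) and Ugt1a10 (1.20, adjusted p = 0.000858) were the 3 of 13 drug and steroid metabolism genes called higher, and Cyp2c66 was the one called lower. The 3 genes share most of their exons, so their probes may read common transcripts, and the Ugt1a7c call was lost without the second Notch-activated array (1.20, adjusted p = 0.063). Of 14 cholesterol synthesis genes, Nsdhl alone was called higher, a share near that of all features, at 0.51 (adjusted p = 0.0374). That call was lost without the first (0.57, adjusted p = 0.0826) or second Notch-activated array (0.44, adjusted p = 0.199), without the first Notch-inactivated array (0.33, adjusted p = 0.185), without either Notch-activated tumour array (adjusted p = 0.0576) and without either wild type tumour array (adjusted p = 0.052). The squamous and regenerative list had 1 call among 10, Krt13, a keratin of stratified epithelium described with the wild type position.

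Of 14 interferon response genes tested, 3 were called lower and none higher, while 4.89% of all features were called lower. The median difference was -0.72, and 11 had an unadjusted limma p under 0.05. Against wild type, 12 of the 14 were called lower in Notch-activated tissue, where 4.63% of all features were. None was called in Notch-inactivated tissue against wild type, which in a list this small is near the 4.45% of all features called there. Irf7, the master regulator of the type I interferon response, read 7.37 and 6.90 in Notch-activated, 8.11 and 9.13 in Notch-inactivated and 9.23 and 9.22 in wild type tissue (-1.49, SE 0.30, adjusted p = 0.0119). The call of Irf7 was lost without the second Notch-activated array (-1.26, adjusted p = 0.11), and without the second Notch-inactivated array its difference was -0.98. Irgm2 (-1.09, adjusted p = 0.0433) and Oas1g (-1.26, adjusted p = 0.0496) lost their calls in 9 of 12 fits without 1 array, among them those without the second Notch-activated array (Irgm2 -0.91, adjusted p = 0.243, and Oas1g -0.96, adjusted p = 0.284) and without the second Notch-inactivated array (Irgm2 -0.68, adjusted p = 0.206, and Oas1g -0.92, adjusted p = 0.219). For all 3 genes the wild type arrays read highest, and wild type was called apart from the Notch-activated end only. None of 5 MHC class II genes was called by limma, and 1 had an unadjusted p under 0.05.

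Mast cell proteases went in opposite directions. Cma1, a chymase, read 7.13 and 6.83 in Notch-activated, 10.55 and 10.41 in Notch-inactivated and 7.72 and 6.74 in wild type tissue (-3.50, SE 0.26, adjusted p = 3.66e-05). Mcpt4, another mast cell chymase, read 7.63 and 7.48 in Notch-activated, 5.46 and 5.19 in Notch-inactivated and 5.61 and 5.12 in wild type tissue, at least 3.22-fold higher (adjusted p = 6.67e-05). Each protease was thus raised at one end and near wild type at the other. Fcer1a, the IgE receptor subunit of mast cells, was called higher at 0.84 (adjusted p = 0.021), a call lost without the first Notch-activated array (0.62, adjusted p = 0.129) or the second Notch-inactivated array (0.62, adjusted p = 0.114). The list of 3 mast cell genes summed, on a log2 scale, to 8.86 and 8.60 in Notch-activated and to 10.65 and 10.50 in Notch-inactivated tissue.

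Markers of other cell types gave few calls. Among 10 myeloid genes the complement gene C1qb was called higher, at 6.72 and 6.95 in Notch-activated, 5.41 and 6.25 in Notch-inactivated and 5.60 and 5.61 in wild type tissue (1.0005, adjusted p = 0.0209). C1qb lost its call without the first (adjusted p = 0.0591) or second Notch-activated array (adjusted p = 0.146) and without the first Notch-inactivated array (0.58, adjusted p = 0.0529). Among 9 fibroblast and matrix genes, 5 of them at background on all 6 normal arrays, Fbln1 was called lower (-1.22, adjusted p = 0.00547). No gene was called among 3 of smooth muscle, 5 of endothelium (4 at background on all 6 normal arrays), 3 of neurons and glia (1 at background on all 6), 3 of B and plasma cells, 3 of red cells, 1 of T and NK cells, 1 of adipocytes and 1 cyclin-dependent kinase inhibitor, none of which had an unadjusted p under 0.05, and of 4 pancreas genes on the array none passed the background filter. The part of these cells in the other differences was not tested.

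Wild type lay between the 2 ends by its mean for 1497 of the 2073 called features (72.2%), beyond the Notch-inactivated end for 413 (19.9%) and beyond the Notch-activated end for 163 (7.86%). Its median position was 0.37 on a scale where 0 is the Notch-inactivated and 1 the Notch-activated mean, so wild type normal tissue stood nearer to Notch-inactivated tissue. By test, against wild type, 1842 features (8.55%) were called for Notch-activated tissue, 846 higher (3.93%) and 996 lower (4.63%). For Notch-inactivated tissue 959 (4.45%) were called, 496 higher (2.3%) and 463 lower (2.15%). Both comparisons share the wild type arrays, and their values are given side by side. Among the 2073 features, wild type was called apart from the Notch-activated end only for 809 (39.0%), from the Notch-inactivated end only for 344 (16.6%) and from neither for 792 (38.2%). For 78 (3.76%) wild type was between the ends and called apart from both, and for 50 (2.41%) it was outside both. The number 78 was 46 without the first or the second Notch-activated array, 41 without the second Notch-inactivated array, 35 without the first and 26 without the second wild type array. Of the 435 features at least 2-fold lower in Notch-activated tissue, 240 had wild type apart from the Notch-activated end only and 89 from the Notch-inactivated end only, and of the 215 at least 2-fold higher, 103 and 45.

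The largest named differences among the 78 graded features, with wild type between the ends and apart from both, were those of Qsox1, Iyd, Dpysl3, Greb1 and Txndc5. Qsox1, which forms disulphide bonds in secreted proteins, read 5.73 and 5.70 in Notch-activated, 8.20 and 8.34 in Notch-inactivated and 7.43 and 7.44 in wild type tissue (-2.56, SE 0.09, adjusted p = 7.1e-07). Txndc5, a protein disulphide isomerase of the endoplasmic reticulum, read 9.17 and 9.05 in Notch-activated, 11.09 and 11.30 in Notch-inactivated and 10.57 and 10.45 in wild type tissue (-2.09, SE 0.11, adjusted p = 5.12e-06). In both the 3 groups were stepped without overlap, and wild type lay about a 0.33 share of the way from the Notch-inactivated to the Notch-activated mean. Greb1 and Dpysl3, which were at background on both Notch-activated arrays, had the same order and were at least 3.93-fold and at least 3.57-fold lower than in Notch-inactivated tissue (adjusted p = 1.71e-05 and 4.77e-05). Iyd and the cytochrome P450 gene Cyp4v3 (1.91, adjusted p = 0.000176) were graded genes that were higher in Notch-activated tissue.

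A further set of genes had wild type outside both ends, so that both genotypes labelled Vil-Cre stood on the same side of it. The part of Cre in this was not tested. Krt13 read 10.45 and 10.24 in Notch-activated, 9.10 and 8.17 in Notch-inactivated and 5.65 and 5.32 in wild type tissue, where it was at background (Notch-activated minus Notch-inactivated 1.71, SE 0.29, adjusted p = 0.00514). The tight junction gene Cldn4 read 11.95 and 12.11 in Notch-activated, 11.63 and 11.87 in Notch-inactivated and 9.85 and 10.32 in wild type tissue. Tnfrsf22, a decoy receptor of the TNF receptor family, read 8.19 and 8.31 in Notch-activated, 7.26 and 8.24 in Notch-inactivated and 6.05 and 6.15 in wild type tissue. Krt13, Cldn4 and Tnfrsf22 were thus higher in both Notch genotypes than in wild type tissue. Ifi27l2a, an interferon-induced gene, went the other way, at 6.21 and 5.51 in Notch-activated, 6.66 and 7.71 in Notch-inactivated and 10.74 and 10.40 in wild type tissue. So did Fam126a, at 5.94 and 7.42 in Notch-activated, 6.84 and 5.62 in Notch-inactivated and 8.62 and 8.4996 in wild type tissue. Of these 5 genes Krt13 alone was called between the ends, with adjusted p of 0.447 for Cldn4, 0.344 for Tnfrsf22, 0.111 for Ifi27l2a and 0.623 for Fam126a.

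**Figure D4:**
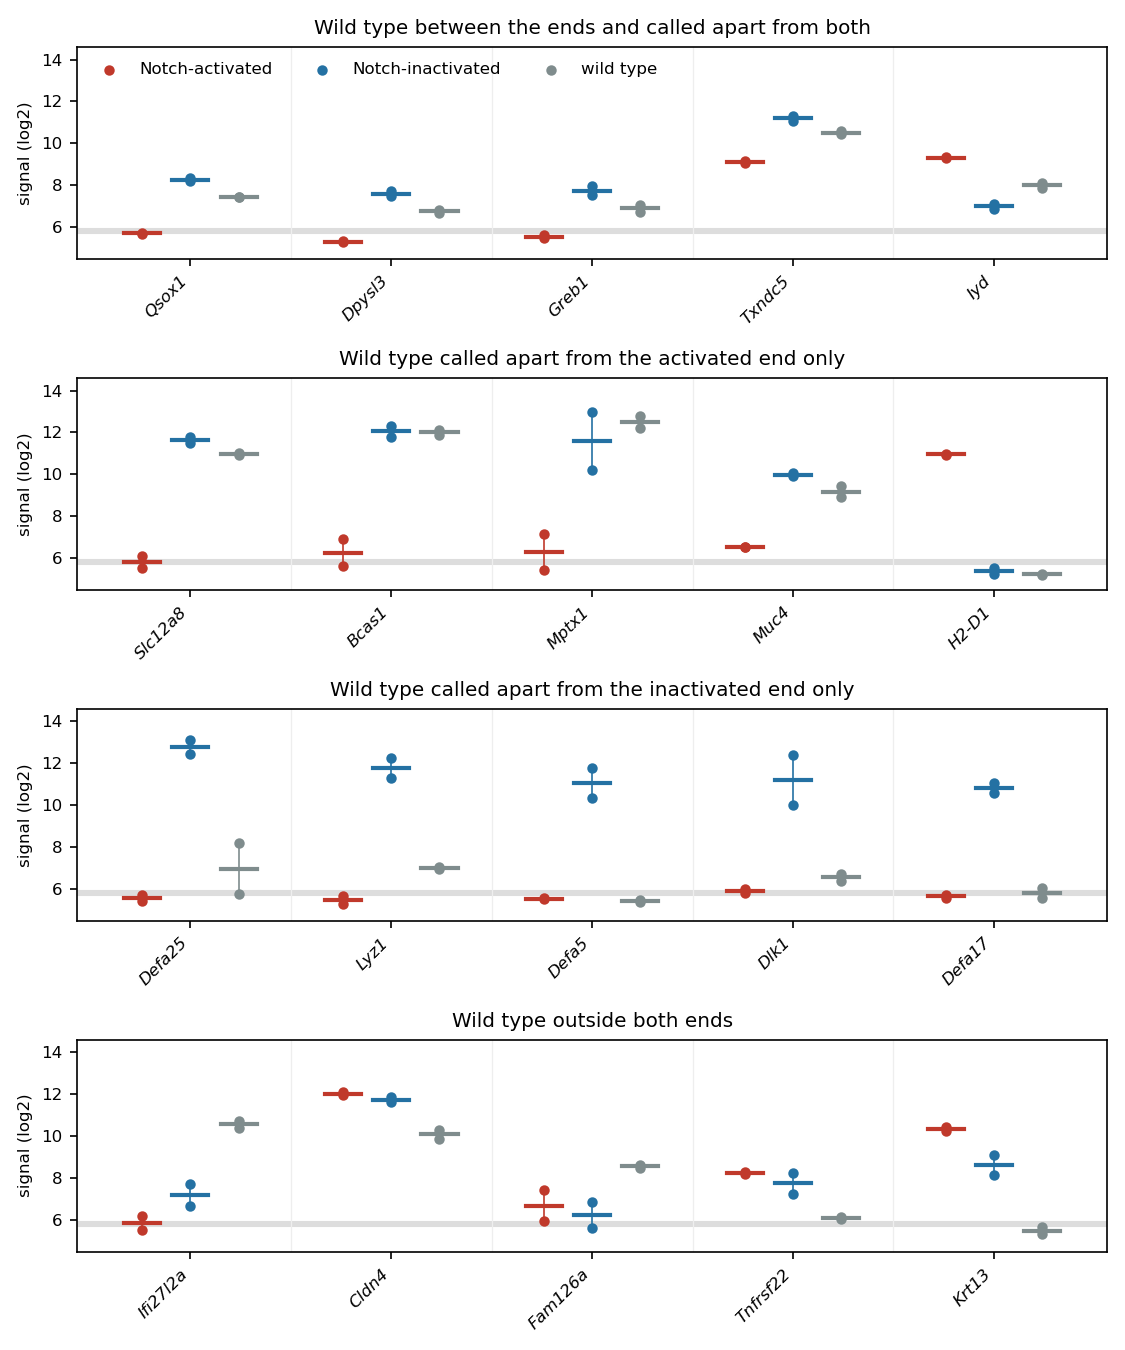
Log2 signal per normal array of the 5 named genes of each class of wild type position, with the Notch-activated group left, Notch-inactivated next and wild type right. Points are arrays, bars are means of 2 arrays and the grey band spans the background limits. Wild type stands between the ends in the top row, near the Notch-inactivated group in the second, near the Notch-activated group in the third and outside both in the bottom row.

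In tumours the Notch-activated minus Notch-inactivated difference was called for 4949 features (23%), 2464 higher (11.4%) and 2485 lower (11.5%). Tumour and normal comparisons share no arrays, and across the 21535 features, which are not independent, their differences correlated at r = 0.476. Of the normal calls, 884 were called in the same direction in tumours, which is 42.6% of the normal and 17.9% of the tumour calls, and 111 in the opposite direction. The difference between the normal and the tumour effect was itself called for 2723 features (12.6%), 1324 higher (6.15%) and 1399 lower (6.5%) in normal tissue. That count was 1603 without the second Notch-activated normal array, 1543 without the first Notch-activated tumour array and 1494 without the second Notch-inactivated tumour array.

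Paneth cell genes were lower in Notch-activated than in Notch-inactivated tissue of both kinds. Against wild type normal tissue, 1 of the 11 was called lower in Notch-activated normal tissue, where 4.63% of all features were. In Notch-inactivated normal tissue 9 of the 11 were called higher than in wild type, against 2.3% of all features. The normal difference thus lay mostly on the Notch-inactivated side. The fitted difference of Lyz1 was -6.29 in normal tissue and -6.13 in tumours, that of Defa5 was -5.51 in normal tissue and -6.28 in tumours, and neither difference between tissues was called (adjusted p = 0.93 and 0.49). Of the 11 Paneth genes, 9 were called lower in tumours. In wild type the tissues parted: Lyz1 read 6.95 and 7.03 in wild type normal tissue, against 12.85 and 12.66 in wild type tumours, so tumour wild type sat with the Notch-inactivated end. Of the 8 goblet genes, 3 were called lower in Notch-activated tumours and Muc13 higher (0.74, adjusted p = 0.000711), and the gap between tissues was called for 5. Slc12a8 differed by -5.83 in normal tissue and by -3.99 in tumours, and Bcas1 by -5.80 in normal tissue and by -3.87 in tumours, with called gaps for both (adjusted p = 0.0071 and 0.028). Muc4 differed by -3.43 in normal tissue and by -0.61 in tumours (adjusted p = 0.077 in tumours), and its gap of -2.82 was called (adjusted p = 0.00085).

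Some genes called in normal tissue were not called in tumours, among them mast cell and colonic genes. Car1 differed by -2.997 in normal tissue against 0.01 in tumours (gap -3.01, adjusted p = 0.0087), and Cma1 by -3.50 in normal tissue against -0.53 in tumours (gap -2.97, adjusted p = 0.0013). Mcpt4 differed by 2.23 in normal tissue against -0.21 in tumours (gap 2.44, adjusted p = 0.00072). Hspb1 read 9.64 and 9.54 in Notch-activated, 9.99 and 10.29 in Notch-inactivated and 9.91 and 10.35 in wild type tumours, high in every tumour group (gap 3.13, adjusted p = 0.0009).

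At the other side stood genes that were silent or not called in normal tissue and moved in tumours. Ptn, the growth factor pleiotrophin, read 5.29 and 5.36 in Notch-activated and 5.39 and 5.52 in Notch-inactivated normal tissue, but 6.05 and 6.33 in Notch-activated and 10.83 and 12.02 in Notch-inactivated tumours (gap 5.11, adjusted p = 0.00021). Nkd1, a Wnt-induced inhibitor of Wnt signalling, read 5.32 and 5.29 in Notch-activated and 5.16 and 5.34 in Notch-inactivated normal tissue, but 6.03 and 6.10 in Notch-activated and 9.96 and 10.23 in Notch-inactivated tumours (gap 4.09, adjusted p = 2.2e-05). Both were at background on all 6 normal arrays. The metallothionein genes Mt4 (gap 4.81, adjusted p = 0.00086) and Mt3 (gap 4.01, adjusted p = 0.00016) and the vesicle priming gene Cadps (gap 4.51, adjusted p = 0.0016) showed the same pattern. Aqp4, a water channel, Slc5a8, a short-chain fatty acid transporter, and Clca4a, of the calcium-activated chloride channel regulator family, were bright in all normal groups, at 9.97 or more on every normal array. Their uncalled normal differences were -0.11 for Aqp4, 0.92 for Slc5a8 (adjusted p = 0.0822) and -0.11 for Clca4a. In tumours Slc5a8 read 10.92 and 10.41 in Notch-activated, 6.28 and 6.12 in Notch-inactivated and 7.69 and 8.47 in wild type tissue, with the Notch-activated tumours highest (gaps -3.78 for Aqp4, -3.54 for Slc5a8 and -3.19 for Clca4a, with adjusted p of 0.0098, 0.0011 and 0.00085). Mettl7b (gap -3.55, adjusted p = 0.003) and Ckb (gap -3.18, adjusted p = 0.0058) were lower in Notch-activated normal tissue, while their tumour differences were 1.97 (adjusted p = 0.0043) and 0.69 (adjusted p = 0.26).

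The Wnt target list had no call and a median of -0.12 in normal tissue, where 2 of its genes were at background on all 6 arrays. In tumours 6 of its 9 tested genes were called lower in Notch-activated tissue and 1 higher, with a median of -0.85. Prox1, a homeobox factor switched on in intestinal tumours, read 5.63 and 5.44 in Notch-activated, 5.84 and 6.01 in Notch-inactivated and 5.69 and 5.80 in wild type normal tissue. In tumours Prox1 read 5.85 and 6.001 in Notch-activated, 9.44 and 9.42 in Notch-inactivated and 9.33 and 9.75 in wild type tissue (gap 3.11, adjusted p = 5.8e-05). Sox4, a transcription factor, differed by -0.30 in normal tissue (adjusted p = 0.428) and by -1.75 in tumours (gap 1.45, adjusted p = 0.011). The gap itself was called for 4 of the 9 genes. None of the 18 proliferation genes was called by limma in tumours either.

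**Figure D5:**
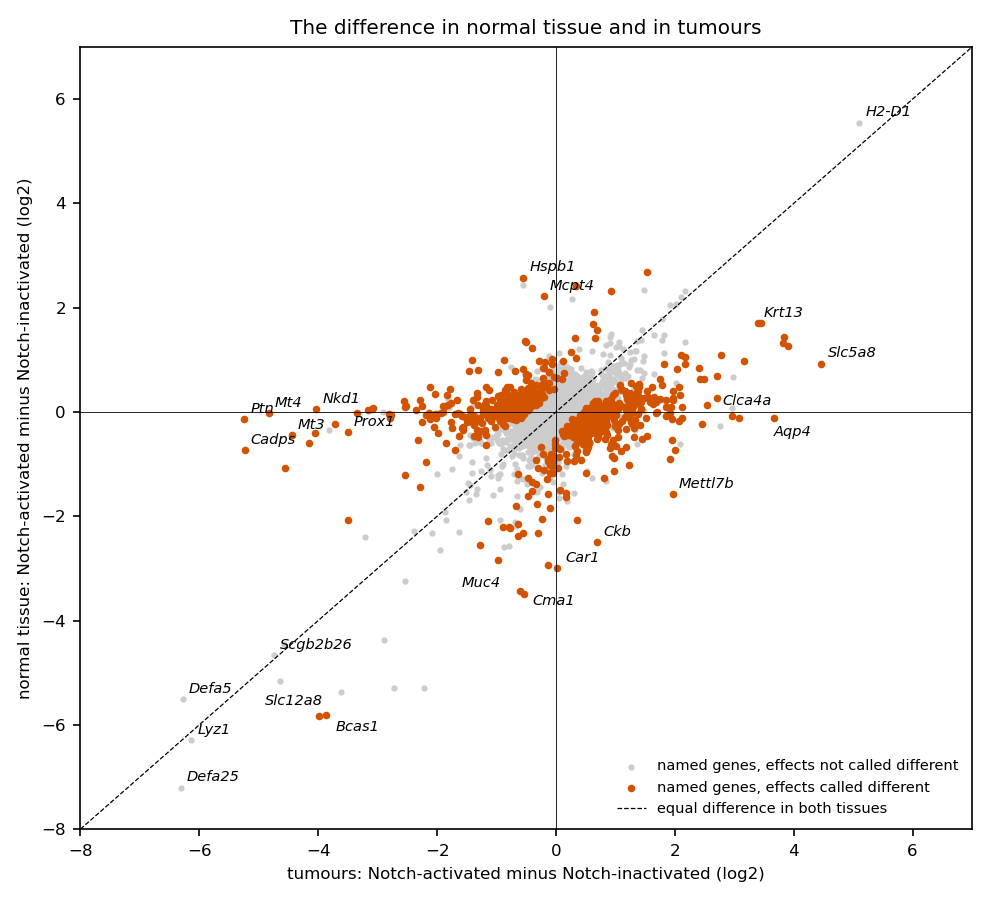
Each named gene by its Notch-activated minus Notch-inactivated difference in tumours (horizontal, log2) and in normal tissue (vertical, log2), with the dashed line marking equal differences. Genes whose differences were called apart are in orange, and Lyz1, Defa5, Defa25 and H2-D1 lie near the line while Ptn, Mt4 and Cadps lie along the horizontal axis.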

How the data were processed

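Total RNA was labelled as biotinylated cRNA and hybridised to Illumina bead arrays, per the labels' protocols, with 12 arrays in 6 groups of 2. The table of log2 values was deposited by the authors. The log base was inferred from its range, the values had been quantile-normalized (sorted values of any 2 arrays differ by at most 0.000543), and the background correction is not given in the labels. The 24 per-sample columns of a companion table could not be tied to samples and were not used. Of 46628 probes, 549 controls were left out. A probe was kept if it exceeded the 95th percentile of 55 foreign probes on at least 2 arrays (22225 probes). The brightest kept probe stood for a gene, which left 21535 features, 5041 of them named by the gene number in the probe identifier. Of these genes, 2171 were named by the less firm kind of probe, with 2 zeros before the number, and 16494 probes stayed unnamed.

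Group means were fitted over all 12 arrays with limma 3.58.1 in R 4.3.3, with Benjamini-Hochberg adjustment over all 21535 features and a threshold of 0.05. Tables were handled with Python 3.11.15 and pandas 2.3.3. Where a group was at background on both arrays, a fold is a lower bound, set by the brighter group's mean over, per dim array, whichever was greater of its limit and its own signal. The number of arrays limits the precision. The procedure was tested on simulated data, where 94% of features changed by 1 on the log2 scale were called. Of those changed by 0.5, 21.2% were called, so differences near 0.5 were often missed there. The simulation gave 146 calls among 21535 features, against 2073 in the data. Its adjusted threshold was therefore stricter, and its shares need not hold in the data. Alternatives were cyclic loess, filter settings, only the groups compared, a trended robust prior, averaged probes, the replicate number as a block, a 2-fold threshold and leaving out each array.

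Genes were named if they were among the 15 highest or 15 lowest genes called in every fit without 1 normal array, the first 6 by size of a gene list, the first 5 of a class of wild type position, the 5 highest or lowest called differences between tissues, or altered by the alleles. Members and lists were chosen with earlier results of these data known. List members named outside this rule, to complete a short count, were named after their values were seen.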

Additional observations from a re-analysis of the deposited data

Results flagged for a closer look

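The Notch-activated minus Notch-inactivated difference itself differed between normal and tumour tissue, by limma's interaction test, for 2723 features. Among the named genes it was more positive in normal tissue by 5.11 for Ptn, 4.81 for Mt4, 4.51 for Cadps, 4.09 for Nkd1 and 4.01 for Mt3. It was more negative in normal tissue by -3.78 for Aqp4, -3.55 for Mettl7b, -3.54 for Slc5a8, -3.19 for Clca4a and -3.18 for Ckb. Outside the genes compared, reporter probes carried signal above the wild type level. The eGFP probe averaged 9.98 ± 0.31 and the IRES probe 8.27 ± 0.39 in Notch-activated normal tissue (SD, n = 2 each). A control probe named for the 3′ end of Cre averaged 8.26 in wild type normal tissue, where no Cre is labelled, and was bright in all 3 normal groups. One named for the 5′ end read 6.19 and 6.33 in wild type normal tissue, but 5.17 and 5.37 in wild type tumours. In tumours the 3′ probe read 5.39 and 5.32 in wild type, 5.98 and 5.85 in Notch-inactivated and 7.54 and 7.47 in Notch-activated tissue. The source of these signals was not tested.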

How the results depend on the processing

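Only the groups compared, in place of all 12 arrays, gave 575 features higher and 37 with wild type apart from both ends. A 2-fold threshold gave 215 higher, 435 lower, 16 with wild type apart from both ends and 1264 with different effects in normal tissue and tumours. Leaving out 1 array gave 379 to 1024 higher, 576 to 1041 lower, 26 to 74 with wild type apart and 1494 to 2682 with different effects. The other alternatives stayed within 1.5 times these 4 counts. With the replicate block 970 features were higher, 1030 lower, 73 had wild type apart from both ends and 2580 had different effects. The replicate numbers were not taken as pairs, since the labels do not say that equal numbers share an animal or batch. Same-numbered deviations of Notch-activated and Notch-inactivated normal arrays correlated at -0.092. The extremes over all pairs of groups were 0.35, for wild type and Notch-inactivated normal arrays, and -0.39, for wild type and Notch-inactivated tumours. Whether same-numbered arrays of these groups share a batch was not tested. Of 69 called genes examined, 53 kept the call under every alternative apart from leaving out 1 array and the 2-fold threshold, which 11 missed by size. Fits without 1 array are not counted for these genes. Some of them were chosen because they kept the call without any 1 normal array, so such a count would be partly fixed in advance. H2-Q2 turned to 0.49 with averaged probes, and Krt6a, uncalled, to -0.16 with the firmer names only. Without 1 array the uncalled differences changed sign for Apc (-0.21 to 0.020), Aqp4 (-0.51 to 0.29), Fam126a (-0.30 to 1.18), Mt4 (-0.075 to 0.025), Nkd1 (-0.032 to 0.15) and Xbp1 (-0.17 to 0.046). The cause was not tested. Between 32.5% and 38.6% of probes exceeded background on a normal array, so changes of dimmer transcripts were not detectable.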
